A study of Mus musculus with 16 samples.

Results

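Ntrk2, Ntrk3 and Sort1 encode TrkB, TrkC and sortilin, 2 receptor tyrosine kinases of the neurotrophin family and a sorting receptor that handles their ligands. They were chosen by symbol, as the deposited tables attach it to each transcript, which gave 3 genes of 46403 and 11 transcripts of 111706. RNA of the CA1 subfield, the output field of the hippocampus proper, was sequenced from 8 Fmr1-KO mice and 8 WT mice, the WT animals given as C57BL/6. The product of Fmr1, FMRP, binds mRNAs and holds back their translation, and its loss causes fragile X syndrome. All 16 animals, knockout and WT, served as yoked controls for the active place avoidance paradigm, so that exposure is common to both groups. The sources used here do not give the strain background of the Fmr1-KO mice, the design of the knockout allele, or the ages and sexes.

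TrkB binds the neurotrophin encoded by Bdnf, and TrkC binds the one encoded by Ntf3. Ligand binding brings receptors together, the kinase domains phosphorylate each other, and the signal passes through adaptor proteins to the Ras-ERK, phosphoinositide kinase and phospholipase C branches. Both genes also make truncated receptors that keep the ligand-binding and membrane parts and end without the kinase; the truncated TrkB is known in brain as the main form of astrocytes, while pyramidal neurons carry the full-length form. Sortilin carries Bdnf and its precursor into secretory vesicles, moves Trk receptors along the axon and, at the cell surface, joins the receptor encoded by Ngfr to bind neurotrophin precursors.

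Ntrk2 (ENSMUSG00000055254) lies on chromosome 13 at 58806569 to 59133970 on the plus strand, Ntrk3 (ENSMUSG00000059146) on chromosome 7 at 78175959 to 78738012 on the minus strand, and Sort1 (ENSMUSG00000068747) on chromosome 3 at 108284082 to 108361511 on the plus strand, all in the GENCODE M21 annotation of GRCm38. Ntrk2 had 2 transcripts, the full-length Ntrk2-201 of 821 codons and the truncated Ntrk2-202 of 476 codons. Ntrk3 had 6, of which Ntrk3-001 (825 codons), Ntrk3-005 (839) and Ntrk3-006 (864) ran through the kinase to the shared stop codon, Ntrk3-002 (612) was truncated, and Ntrk3-003 (a retained intron) and Ntrk3-004 (a processed transcript) were noncoding. Sort1 had 3, namely Sort1-001 of 825 codons, Sort1-004 of 858 codons and Sort1-005, a retained-intron transcript. A coding transcript was classed as full-length where its reading frame ended at the stop codon of the longest one of its gene, and as truncated where it ended elsewhere.

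The coding stretches that tell these transcripts apart are shown next, since each share reported for a receptor form rests on them and on the untranslated sequence that goes with them. The sequences come from the GENCODE M21 transcripts and are written 5′ to 3′ in the direction of the gene. Capitals mark the stretch that the partner transcript lacks, and the 15 lower-case bases on a side are coding sequence that both share. The truncated TrkB has, in place of the kinase, a tail of 38 coding bases that ends in its own stop codon, at chr13:58932023-58932060 (plus strand):
Ntrk2-202: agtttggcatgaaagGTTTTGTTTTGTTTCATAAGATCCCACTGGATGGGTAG
The truncated TrkC has a longer tail of 254 coding bases, stop codon included, from the exon pieces chr7:78304292-78304426 and chr7:78302629-78302747 (minus strand):
Ntrk3-002: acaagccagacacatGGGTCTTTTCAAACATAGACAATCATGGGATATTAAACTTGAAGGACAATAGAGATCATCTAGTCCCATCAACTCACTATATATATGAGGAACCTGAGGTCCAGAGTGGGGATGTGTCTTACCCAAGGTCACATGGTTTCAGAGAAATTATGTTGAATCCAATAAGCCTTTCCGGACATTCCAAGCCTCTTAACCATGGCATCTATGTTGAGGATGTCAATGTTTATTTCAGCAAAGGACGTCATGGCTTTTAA
Ntrk3-005 carries 14 further codons inside the kinase-coding part, at chr7:78204103-78204144 (minus strand), an insert known from rat TrkC to dampen signalling by the kinase:
Ntrk3-005: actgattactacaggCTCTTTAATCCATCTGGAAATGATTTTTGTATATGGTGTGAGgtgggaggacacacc
Ntrk3-006 has the same 14 codons and, just before them, another 25 at chr7:78229487-78229561 (minus strand), so its lower-case bases on the right are the start of the Ntrk3-005 insert:
Ntrk3-006: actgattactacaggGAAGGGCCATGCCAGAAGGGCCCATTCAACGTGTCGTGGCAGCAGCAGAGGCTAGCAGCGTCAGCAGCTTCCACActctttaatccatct
Sort1-004 carries 33 further codons at chr3:108355472-108355570 (plus strand), the cassette whose inclusion in mouse brain is held down by TDP-43, the splicing repressor encoded by Tardbp:
Sort1-004: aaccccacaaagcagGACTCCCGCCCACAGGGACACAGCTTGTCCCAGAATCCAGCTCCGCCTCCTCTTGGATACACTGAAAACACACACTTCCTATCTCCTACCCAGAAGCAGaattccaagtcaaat

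Fmr1-KO libraries held 1480966 to 2979481 estimated counts, and WT libraries held 2126632 to 3275003 apart from WT replicates 3 and 6, with 878484 and 515103. These shallow libraries also stood apart in composition, with 80.7% and 58.4% of counts in protein-coding transcripts, against 87.6% or more in every other library. Fmr1 itself averaged 22.2 ± 7.08 CPM (TMM-normalised counts, for a library of common size) in the Fmr1-KO libraries and 58.1 ± 19.4 CPM in the WT libraries (SD, n = 8 each), lower in the knockout as labelled. The 5 tested CA1 pyramidal markers (Wfs1, Fibcd1, Pou3f1, Mpped1 and Man1a) summed to 2596 to 2769 CPM in Fmr1-KO and 2328 to 2892 CPM in WT, and the 4 dentate granule markers summed to 134 to 229.8 CPM in Fmr1-KO and 136 to 219.8 CPM in WT. In these bulk samples, fewer cells of a type and less RNA per cell cannot be told apart.

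Per unit of transcript length, Sort1 was the most abundant of the 3 genes and Ntrk3 the least. The deposited TPM (relative transcript abundance, scaled by effective length within a library) had a median of 292 for Sort1, 112 for Ntrk2 and 61.3 for Ntrk3 in Fmr1-KO, against 244 for Sort1, 103 for Ntrk2 and 63.4 for Ntrk3 in WT. TPM serve here to rank transcripts within a library and not to compare genotypes, since on the log2(TPM + 1) scale the median of all genes was itself 0.55 higher in Fmr1-KO. The order of the genes was the same in every library. Sort1 exceeded Ntrk2 in 16 of 16 libraries, by a median ratio of 2.61 (range 2.17 to 2.95), and Ntrk2 exceeded Ntrk3 in 16 of 16, by a median ratio of 1.71 (range 1.10 to 2.16). The ratio of Sort1 to Ntrk2 thus varied little from mouse to mouse. Ntrk3 came closest to Ntrk2 in the shallow WT replicates 3 and 6, so the low end of that range, 1.10, belonged to shallow libraries. The Ntrk3 level depends on the transcript models used: Ntrk3-001 is 3300 bases long in the deposited tables and 19703 bases long in GENCODE M21, and Ntrk3-002 is 2337 and 3977 bases long, whereas Ntrk2-201 differs little, at 8541 and 8744 bases.

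Between genotypes, Sort1 was the member with the largest difference, a modestly higher level in Fmr1-KO that did not pass the test over all genes. Neither Trk receptor gene differed beyond the spread between mice. Of the 3 genes, 0 passed the threshold of an adjusted p of 0.05 (edgeR quasi-likelihood test, Benjamini-Hochberg over 11515 genes), against a background of 0.0174% of all genes tested. At an unadjusted p under 0.05, Sort1 alone was called, against a background of 7.89% of genes in either direction and 3.61% in its direction, so a call of this kind was common among all genes.

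Sort1 ranged from 1026 to 1316 CPM in Fmr1-KO (median 1182) and from 756 to 1254 CPM in WT (median 975). All 8 Fmr1-KO libraries lay above the WT median, but the groups overlapped, with WT replicates 4, 5 and 7 inside the Fmr1-KO range and the shallow WT replicate 3 lowest of all. Fmr1-KO libraries averaged 1178 ± 107 CPM and WT libraries 989 ± 147 CPM (SD, n = 8 each), a fold of 1.19 with a 95% interval of 1.05 to 1.35. On the log2 scale this was 0.25 (SE 0.09; unadjusted p 0.0112, adjusted p 0.574), and by edgeR's p Sort1 ranked 222 of 11515 genes. Without the shallow WT libraries the log2 fold change was 0.20 and the adjusted p 0.644.

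Ntrk2 ranged from 483 to 553 CPM in Fmr1-KO (median 542) and from 331 to 624 CPM in WT (median 494). The Fmr1-KO libraries lay close together inside the wider WT range, whose lowest value was again that of WT replicate 3. Fmr1-KO libraries averaged 529.9 ± 28.2 CPM and WT libraries 493 ± 98.0 CPM (SD, n = 8 each). The edgeR log2 fold change was 0.10 (SE 0.10, adjusted p 0.839), and its 95% interval of −0.10 to 0.30 leaves room for a difference of up to 1.24-fold. It was 0.039 without WT replicate 3 and 0.0092 without both shallow libraries.

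Ntrk3 ranged from 76.9 to 124 CPM in Fmr1-KO (median 96.2) and from 80.7 to 114 CPM in WT (median 92.5). The groups overlapped almost wholly, with the lowest and the highest library both Fmr1-KO. Fmr1-KO libraries averaged 97.3 ± 16.5 CPM and WT libraries 94.3 ± 12.1 CPM (SD, n = 8 each). The edgeR log2 fold change was 0.063 (SE 0.11, adjusted p 0.920), and its 95% interval ran from −0.16 to 0.29. Without the shallow libraries it was 0.10.

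**Figure D1:**
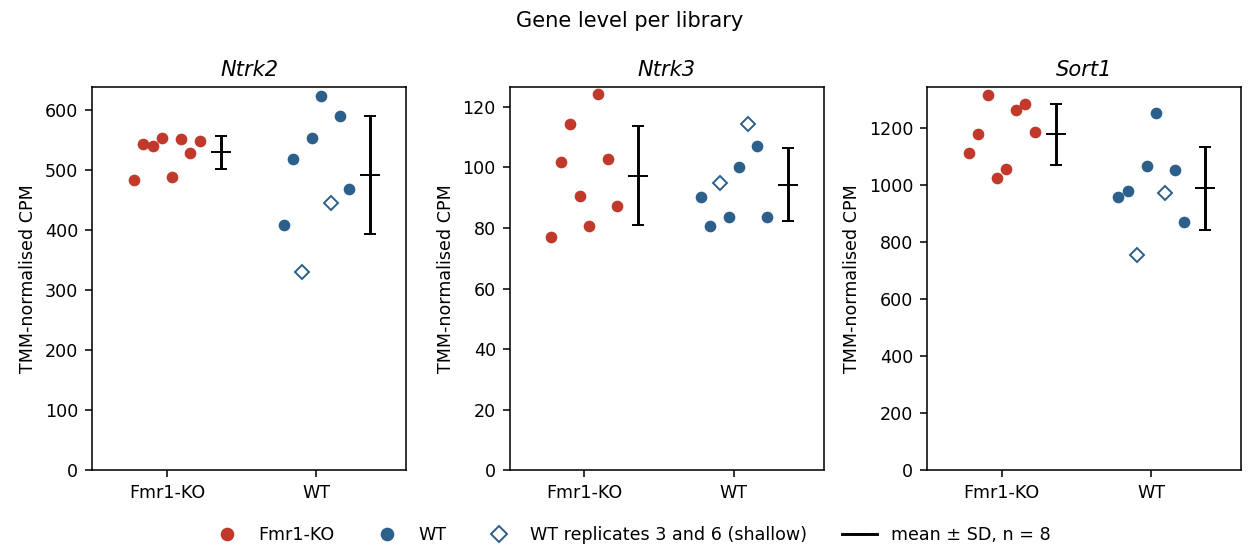
TMM-normalised CPM of Ntrk2, Ntrk3 and Sort1 in each library, Fmr1-KO left of WT, with the mean and SD of 8 libraries beside each group; open diamonds are the shallow WT replicates 3 and 6. The groups overlap for each gene, and for Sort1 all 8 Fmr1-KO points, at 1026 CPM and above, exceed the WT median of 975 CPM.

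Markers of the glial and vascular cells around pyramidal neurons had lower fitted levels in Fmr1-KO, though 0 of them passed the edgeR test; at an unadjusted p under 0.05, 2 of 10 astrocyte, 2 of 5 oligodendrocyte precursor and 2 of 8 endothelial or pericyte markers were lower, beside 4.28% of all genes in that direction. All 10 tested astrocyte markers had a lower fitted level in Fmr1-KO (median log2 fold change −0.35), as did 7 of 7 oligodendrocyte markers (−0.37), 5 of 5 precursor markers (−0.46), 7 of 7 microglial markers (−0.31) and 8 of 8 endothelial and pericyte markers (−0.59), beside a median of −0.01 over all genes. Of all 11515 tested genes, 5977 had a lower fitted level. Lower levels were not confined to glial and vascular lists. Among tested neuronal markers, 6 of 8 for GABAergic interneurons (−0.27) and 3 of 3 for CA3 pyramidal cells (−0.29) were lower. So were 3 of 5 for CA1 pyramidal cells (−0.0081), 1 of 2 for dentate granule cells (−0.067) and 0 of 1 for CA2 (0.20). Without both shallow libraries the interneuron median was −0.071 and the CA3 median −0.12. The summed astrocyte markers ranged from 1643 to 2596 CPM in Fmr1-KO (median 2291) and from 1848 to 5466 CPM in WT (median 2020), the highest in WT replicate 3. By that sum 5 of 8 Fmr1-KO libraries lay above the WT median. Several of these differences depended on the shallow libraries. Without both, the median was −0.095 for the astrocyte list, −0.065 for the precursor list, −0.16 for the microglial list, −0.40 for the endothelial and pericyte list and −0.40 for the oligodendrocyte list. None of these markers was at 0 in all libraries. Their part in the Sort1 difference was not tested.

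Of the 11 transcripts, 7 passed the filter on low counts, and Ntrk3-003, Ntrk3-004, Ntrk3-005 and Ntrk3-006 did not. Of these 7, 0 passed an adjusted p of 0.05 in the transcript-level edgeR test, against a background of 0.00596% of 16772 transcripts. At an unadjusted p under 0.05, Sort1-001 alone was called, against a background of 3.91% in either direction and 1.85% in its direction.

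The full-length TrkB transcript was the leading Ntrk2 product in CA1 of both genotypes. Ntrk2-201 ranged from 66.5 to 107 TPM in Fmr1-KO (median 84.7) and from 8.16 to 96.8 TPM in WT (median 75.6), and the truncated Ntrk2-202 ranged from 24.9 to 46.7 TPM in Fmr1-KO (median 28.1) and from 2.86 to 39.3 TPM in WT (median 27.1). The lowest full-length values were those of the shallow WT libraries, and the groups overlapped for both forms. Per length, Ntrk2-201 exceeded Ntrk2-202 in 15 of 16 libraries, by a median ratio of 2.89, with WT replicate 3 as the exception at 0.94.

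By estimated counts, the full-length share of Ntrk2 ranged from 70.8% to 83.2% in Fmr1-KO (median 79.1%) and from 53.5% to 83.5% in WT (median 77.9%). All libraries but WT replicate 3 lay between 70.8% and 83.5%, and the groups overlapped. The mean share was 77.6 ± 4.14% in Fmr1-KO and 75.1 ± 9.03% in WT (SD, n = 8 each), a difference of 2.49 percentage points (two-sided exact permutation test, p = 0.623). Without the shallow WT libraries the difference was −0.66 points (exact permutation p = 0.749), so the sign rested on WT replicate 3. In that library 148 of 276 estimated counts were full-length, with a 95% Wilson interval of 47.7% to 59.4%; such intervals cover counting error only and not the uncertainty of assigning reads to transcripts.

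Neither Ntrk2 form passed the transcript-level test between genotypes. Ntrk2-201 averaged 433 ± 36.2 CPM in Fmr1-KO mice against 395 ± 113 CPM in WT mice (log2 fold change 0.13, SE 0.16, adjusted p 0.9999). Ntrk2-202 averaged 125 ± 23.0 CPM in Fmr1-KO mice against 122 ± 19.8 CPM in WT mice (log2 fold change 0.03, SE 0.13, adjusted p 0.9999). Without the shallow libraries the fold changes were −0.020 for Ntrk2-201 and 0.047 for Ntrk2-202.

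The full-length Ntrk3-001 and the truncated Ntrk3-002 had like median levels per length, with a wide range between libraries. The truncated Ntrk3-002 had a median of 31.7 TPM in Fmr1-KO and 24.5 TPM in WT, and the full-length Ntrk3-001 a median of 29.3 TPM in Fmr1-KO and 24.7 TPM in WT. Ntrk3-001 exceeded Ntrk3-002 in 6 of 16 libraries, and the ratio between them ran from 0.19 to 2.33 with a median of 0.86. Their order therefore varied from mouse to mouse, where that of the Ntrk2 forms held in 15 of 16.

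The full-length share of Ntrk3 counted Ntrk3-001, Ntrk3-005 and Ntrk3-006 against these plus Ntrk3-002. This share, like the levels per length, depends on the transcript models used. Ntrk3-001 has 3300 bases in the deposited tables and 19703 in GENCODE M21, and Ntrk3-002 has 2337 and 3977. Reads from sequence that the deposited models lack are not counted, and the effect on the share was not tested. The share ranged from 48.0% to 71.1% in Fmr1-KO (median 61.0%) and from 34.3% to 82.5% in WT (median 59.2%). The WT values were the more spread out, with the shallow replicates 3 (34.3%) and 6 (36.4%) lowest and replicate 4 highest, while the other 5 lay between 55.3% and 61.6%. WT replicate 6 held only 38 counts of coding Ntrk3, and its 95% Wilson interval was 23.4% to 52.7%.

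The mean full-length share of Ntrk3 was 61.2 ± 8.80% in Fmr1-KO and 56.2 ± 15.3% in WT (SD, n = 8 each), a difference of 5.03 percentage points (two-sided exact permutation test, p = 0.428). Without the shallow WT libraries it was −1.91 points (exact permutation p = 0.713), so here too the direction was set by those libraries. Ntrk3-001 averaged 50.7 ± 19.0 CPM in Fmr1-KO mice against 43.5 ± 11.1 CPM in WT mice (log2 fold change 0.20, SE 0.27, adjusted p 0.9999 in the edgeR test). Ntrk3-002 averaged 38.8 ± 9.09 CPM in Fmr1-KO mice against 43.2 ± 18.1 CPM in WT mice (log2 fold change −0.12, SE 0.26, adjusted p 0.9999); in WT its 2 highest values, 74.5 and 61.4 CPM, were those of the shallow libraries. Without them the fold changes were 0.067 for Ntrk3-001 and 0.16 for Ntrk3-002.

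The TrkC transcripts with the kinase insert were an uneven part of Ntrk3. Ntrk3-005 and Ntrk3-006 together made 0% to 73.7% of full-length Ntrk3 counts in Fmr1-KO (median 10.1%) and 0% to 38.5% in WT (median 18.2%). The value of 73.7% belonged to Fmr1-KO replicate 8, in which Ntrk3-001 had 26.8 estimated counts, its lowest among the Fmr1-KO libraries. Both inserts were at 0 in 3 Fmr1-KO libraries and 1 WT library, where 3 counts would be 1.63% to 11.1% of all full-length counts. Only reads that reach an insert or a differing end tell Ntrk3-005 and Ntrk3-006 from Ntrk3-001, so their true share could be higher than this. These transcripts differ from Ntrk3-001 in few coding bases, and with at most 46.5 estimated counts each in any library their shares are given as a description, with no test. The noncoding Ntrk3-003 and Ntrk3-004 were at 0 in most libraries, with a joint share of 0% to 5.39% of Ntrk3 in Fmr1-KO and 0% to 10.9% in WT.

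**Figure D2:**
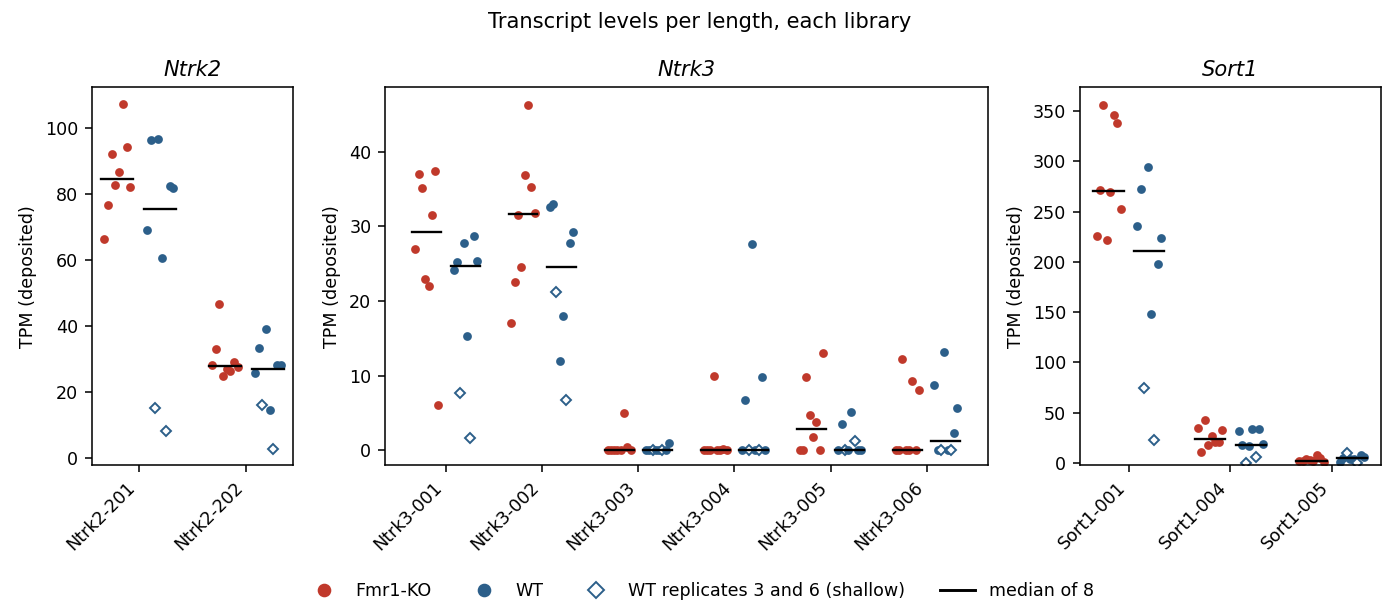
Deposited TPM of the 11 transcripts in each library, Fmr1-KO left of WT within each transcript; the line is the median of 8 libraries and open diamonds are the shallow WT replicates 3 and 6. Ntrk2-201 stands well above Ntrk2-202, with medians of 84.7 and 28.1 TPM in Fmr1-KO, Ntrk3-001 and Ntrk3-002 lie at like levels, and Sort1-001 exceeds the other Sort1 transcripts in every library.

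Sort1 was made mostly as the transcript without the 33-codon cassette. Sort1-001 ranged from 222 to 356 TPM in Fmr1-KO (median 270.4) and from 23.3 to 294 TPM in WT (median 211), and Sort1-004 ranged from 10.96 to 42.3 TPM in Fmr1-KO (median 23.9) and from 0 to 33.9 TPM in WT (median 18.3). Sort1-001 was the higher in 16 of 16 libraries, and where Sort1-004 was above 0 the median ratio was 10.1. The cassette transcript made 3.90% to 13.3% of coding Sort1 counts in Fmr1-KO (median 8.24%) and 0% to 19.5% in WT (median 9.76%). The WT extremes were the shallow libraries, at 0% in replicate 3 and 19.5% in replicate 6. The retained-intron Sort1-005 (chr3:108355467-108361438) spans the cassette, so reads there can be assigned to Sort1-004 or to Sort1-005. In WT replicate 3 Sort1-004 had 0 estimated counts and Sort1-005 had 60.1, and in WT replicate 6 they had 63.1 and 0. The part of read assignment in these cassette shares was not tested. Higher inclusion was not confined to shallow libraries. WT replicate 5 had 617 estimated counts of Sort1-004 beside 2684 of Sort1-001, and WT replicate 7 had 326 beside 1901.

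Like the gene, Sort1-001, which held most Sort1 counts, had a modestly higher level in Fmr1-KO that did not pass the edgeR test. In normalised counts it ranged from 990 to 1260 CPM in Fmr1-KO (median 1142) and from 674 to 1055 CPM in WT (median 916). Of the WT libraries only replicates 4 and 5 reached into the Fmr1-KO range, and all 8 Fmr1-KO libraries lay above the WT median. Fmr1-KO libraries averaged 1129 ± 115 CPM and WT libraries 903 ± 129 CPM (SD, n = 8 each), a fold of 1.25 with a 95% interval of 1.10 to 1.42.

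On the log2 scale Sort1-001 was 0.32 higher (SE 0.09; edgeR unadjusted p 0.00314, adjusted p 0.9999), rank 30 of 16772 transcripts by p. Without the shallow WT libraries it was 0.23. The DESeq2 Wald test gave 0.30 and an adjusted p of 0.0388, but its independent filtering left 15608 of the 16772 transcripts without an adjusted p, and without that filtering the adjusted p was 0.160. The fitted fold changes of the other Sort1 transcripts were negative, with wide errors. Sort1-004 averaged 104 ± 39.99 CPM in Fmr1-KO mice against 114 ± 80.4 CPM in WT mice (log2 fold change −0.13, SE 0.53), and the retained-intron Sort1-005 averaged 9.45 ± 5.63 CPM in Fmr1-KO mice against 20.6 ± 22.3 CPM in WT mice (log2 fold change −1.12, SE 0.64), both with an adjusted p of 0.9999. With limma-voom the value of Sort1-004 was 0.044 and that of Sort1-005 −0.35, and without the shallow libraries they were −0.21 and −0.71. The Sort1-005 value rested in part on WT replicate 3, without which it was −0.53. That library alone had 71.1 CPM of Sort1-005, 9.55% of its Sort1 counts, against at most 27.3 CPM in the other WT libraries. In it Sort1-004, which shares the cassette region with Sort1-005, was at 0 CPM, and the part of read assignment was not tested.

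The share of Sort1-001 in all Sort1 counts ranged from 86.2% to 95.6% in Fmr1-KO (median 91.1%) and from 80.0% to 93.5% in WT (median 89.2%). The groups overlapped, with 5 of 8 Fmr1-KO libraries above the WT median. The mean share was 90.9 ± 3.07% in Fmr1-KO and 87.3 ± 5.37% in WT (SD, n = 8 each), a difference of 3.51 percentage points that did not pass (two-sided exact permutation test, p = 0.131). This share also counts the retained-intron Sort1-005 in its denominator. With only the coding transcripts there, Sort1-001 and Sort1-004, the difference was 2.06 percentage points (two-sided exact permutation test, p = 0.451). A shift of Sort1 towards the transcript without the cassette was therefore not shown at this number of mice.

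The test of transcript usage, which asks whether a transcript moved relative to the others of its gene, called 0 of the 7 member transcripts at an adjusted p of 0.05, against a background of 0.0209% of 9570 transcripts. At an unadjusted p under 0.05 it likewise called 0 of 7, against a background of 1.23%. The largest member value was that of Sort1-005, with a log2 usage difference of −1.37 (unadjusted p 0.1002, adjusted p 0.9998), which was −0.73 without WT replicate 3. Those of the 4 Ntrk2 and Ntrk3 transcripts lay between −0.18 and 0.14.

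**Figure D3:**
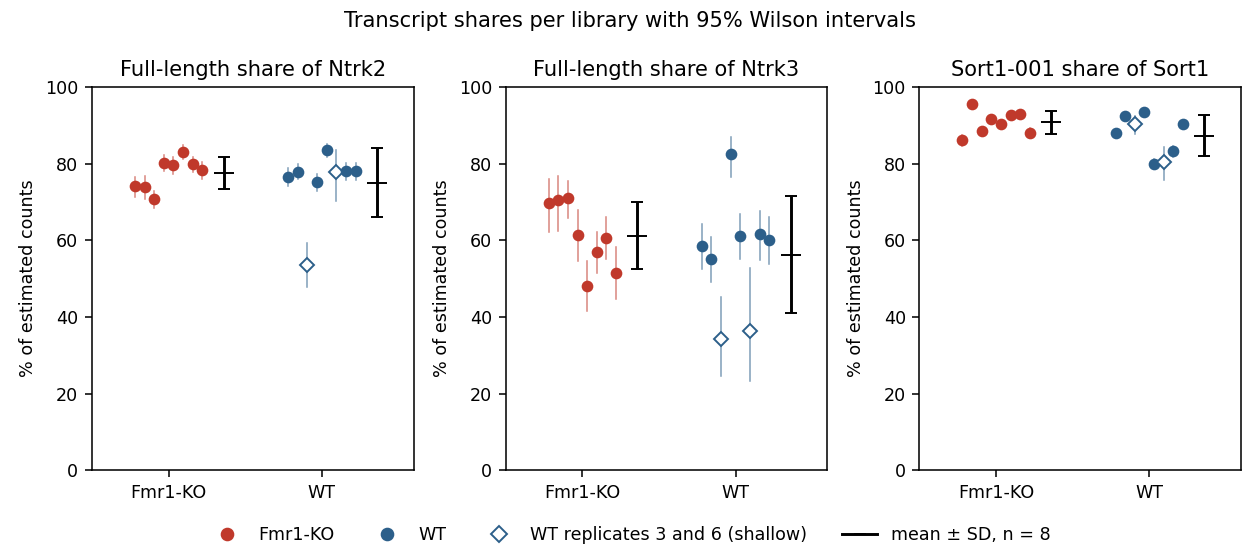
Share of full-length Ntrk2, full-length Ntrk3 and Sort1-001 in each library as a percentage of estimated counts, Fmr1-KO left of WT, with 95% Wilson intervals for each library and the mean and SD of 8 libraries beside each group. WT replicate 3 (open diamond, 53.5%) stands below all others for Ntrk2, and both shallow WT libraries (34.3% and 36.4%) are the lowest for Ntrk3.

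**Figure D4:**
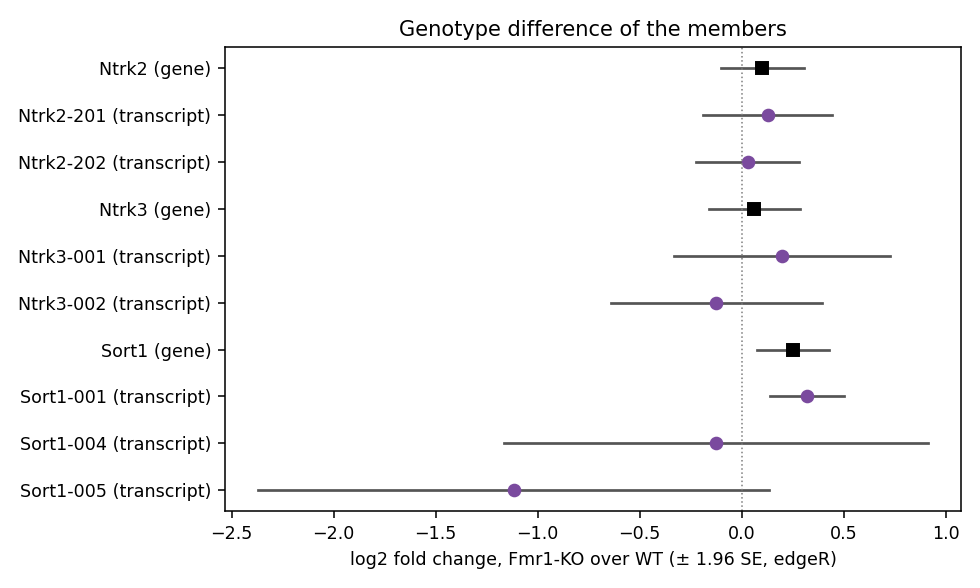
log2 fold change, Fmr1-KO over WT, of the 3 genes (squares) and their 7 tested transcripts (circles) in the edgeR fits, with bars of 1.96 standard errors on each side. The intervals of Sort1 and Sort1-001 lie above 0, at 0.25 and 0.32, while those of the other members include 0; these intervals are not adjusted for the number of features tested.

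The 2 Ntrk2 forms were set against the astrocyte markers across libraries, since truncated TrkB is known as the astrocyte form. Over 16 libraries, log2 CPM of Ntrk2-202 and the mean log2 CPM of the 10 markers gave a Pearson r of 0.46 (permutation p = 0.0534, the same after Benjamini-Hochberg adjustment over the 2 forms) and a Spearman rho of 0.45 (permutation p = 0.0799). Without the 2 libraries farthest from the median marker level, WT replicates 3 and 4, r was 0.24 (n = 14, permutation p = 0.403). Within the 8 Fmr1-KO libraries r was 0.77 (exact permutation p = 0.0273) and rho 0.83, and within the 8 WT libraries r was 0.55 (exact permutation p = 0.121) and rho 0.48. The WT value rested on WT replicate 3, without which r over the other 7 WT libraries was 0.036 (exact permutation p = 0.922), a check added after the data were seen. Over all 16 libraries the relation did not pass.

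Full-length Ntrk2-201 went the other way. Over 16 libraries its Pearson r with the astrocyte markers was −0.87 (permutation p = 0.00518, adjusted 0.0104) and its Spearman rho −0.49 (permutation p = 0.0549, adjusted 0.0799). That r rested on WT replicate 3, which had the highest marker level and the lowest Ntrk2-201: without that library it was −0.37 (n = 15, permutation p = 0.172, likewise added after the data were seen), and without WT replicates 3 and 4, the libraries farthest from the median marker level, it was −0.45 (n = 14, permutation p = 0.106). Within the Fmr1-KO libraries r was −0.41 (exact permutation p = 0.318). Within the WT libraries it was −0.89 (exact permutation p = 0.0267), and −0.35 without replicate 3 (n = 7, exact permutation p = 0.426). The relations also depended on the scale, and with log2(TPM + 1) in place of CPM the r of both forms was positive, at 0.88 for Ntrk2-202 and 0.70 for Ntrk2-201.

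**Figure D5:**
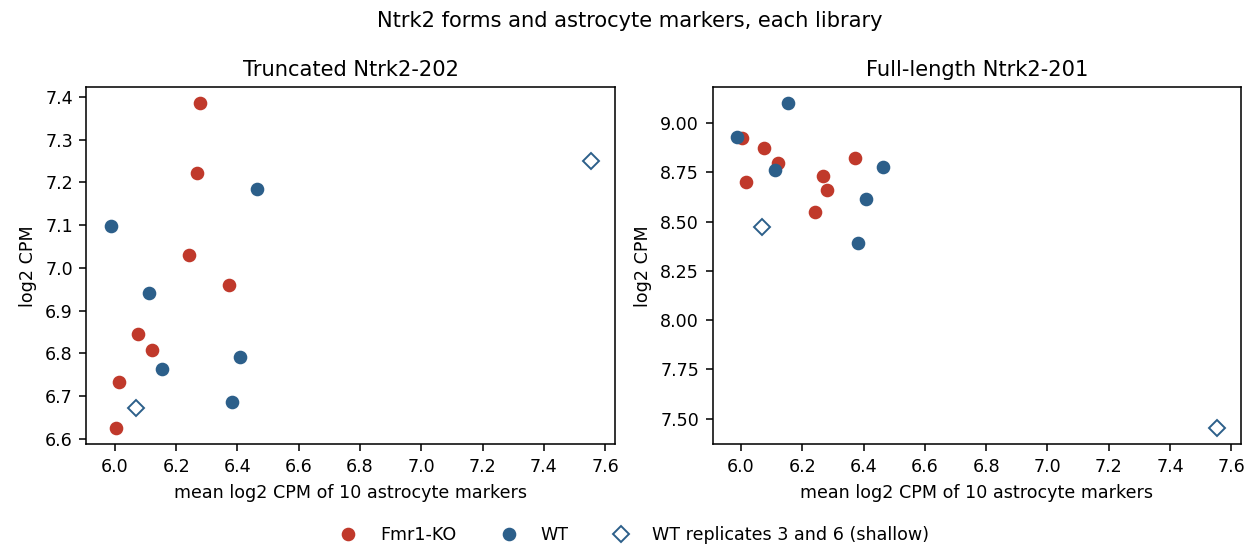
log2 CPM of truncated Ntrk2-202 (left) and full-length Ntrk2-201 (right) against the mean log2 CPM of 10 astrocyte markers, a point for each of 16 libraries, with open diamonds for the shallow WT replicates 3 and 6. WT replicate 3 lies alone at the right in both panels, at a marker level of 7.55, and carries much of the r of −0.87 in the right panel.

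The rest of the pathway showed no gene past the threshold. Of 78 listed genes in 6 groups, 69 were tested, 38 had a higher and 31 a lower fitted level in Fmr1-KO, and 0 passed an adjusted p of 0.05; their median log2 fold change was 0.03, beside −0.01 over all genes. At an unadjusted p under 0.05, 5 were higher and 1 lower, 6 of 69, against the 7.89% of all genes given above. By direction, 3.61% of all genes were called higher and 4.28% lower. By group, those with a higher fitted level were 2 of 4 ligand and processing genes, 2 of 4 other receptors, 15 of 20 adaptors (median 0.08), 8 of 16 in the Ras-ERK and CREB branch, 3 of 8 in the phosphoinositide kinase and Akt branch (median −0.09) and 8 of 17 sortilin ligands and trafficking partners. Beside these, 5538 of all 11515 tested genes had a higher fitted level.

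Among the ligands and their processing enzymes, Bdnf, the TrkB ligand, averaged 57.7 ± 12.3 CPM in Fmr1-KO mice against 50.8 ± 21.1 CPM in WT mice (log2 fold change 0.21, SE 0.22, adjusted p 0.844 in the edgeR test). Ntf3, Ntf5 and Mmp9 had too few counts to be tested, so the TrkC ligand could not be compared. Plat, the tissue plasminogen activator that starts the cleavage of the Bdnf precursor outside the cell, had the smallest p of all the listed genes. It ranged from 14.5 to 22.6 CPM in Fmr1-KO (median 19.7) and from 22.1 to 52.8 CPM in WT (median 29.98). The groups met only at their edges, with the highest Fmr1-KO library just above the lowest WT library. The edgeR log2 fold change of Plat was −0.71 (SE 0.18; unadjusted p 8.83e-04, adjusted p 0.506), where 4.28% of all genes were lower in Fmr1-KO at an unadjusted p under 0.05. Cpe, carboxypeptidase E, which sorts the Bdnf precursor into the regulated secretory pathway, had a difference of −0.14 in log2 terms (SE 0.07, adjusted p 0.649).

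Of the other receptors, Ngfr had at most 5.002 estimated counts in a library and was not tested. The relatives of sortilin differed widely in level. Sorl1, a sorting receptor for the amyloid precursor protein, averaged 149 TPM over the 16 libraries, Sorcs3 42.4 TPM, Sorcs2 4.65 TPM and Sorcs1 1.56 TPM, against 261 TPM for Sort1. Their log2 fold changes were 0.10 for Sorl1 (SE 0.12), 0.23 for Sorcs3 (SE 0.16), −0.34 for Sorcs2 (SE 0.28) and −0.32 for Sorcs1 (SE 0.56), with adjusted p from 0.727 to 0.918. Without the shallow libraries they were 0.023 for Sorl1, 0.10 for Sorcs3, −0.14 for Sorcs2 and −0.16 for Sorcs1.

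Within the signalling branches, none of the genes named here passed the test over all genes. Irs2, an insulin receptor substrate that also takes part in Trk signalling, averaged 147 ± 43.7 CPM in Fmr1-KO mice against 104 ± 36.3 CPM in WT mice (log2 fold change 0.50, SE 0.19, adjusted p 0.581). For Irs2, 8 of 8 Fmr1-KO libraries lay above the WT median, and the groups overlapped.

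The other genes named in these branches had adjusted p from 0.675 to 0.799 in the edgeR test. Among the adaptors these were Plcg1, phospholipase C gamma (log2 fold change 0.17), and Shc3, a neuronal Shc adaptor (0.39). In the ERK branch they were the ribosomal S6 kinase genes Rps6ka3 (−0.41) and Rps6ka1 (−0.86), and in the Akt branch Akt1 (−0.17) and Akt2 (−0.28). Without the shallow WT libraries the value was 0.17 for Shc3, −0.15 for Rps6ka1 and 0.01 for Akt2.

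Of the genes that work with sortilin, Vps26b, a retromer subunit that returns it from endosomes, averaged 159 ± 21.1 CPM in Fmr1-KO mice against 129 ± 22.7 CPM in WT mice (log2 fold change 0.29, SE 0.11, adjusted p 0.590). Ntsr1, a neurotensin receptor whose ligand sortilin also binds, was near the limit of detection, at 6.22 ± 3.14 CPM in Fmr1-KO mice against 2.21 ± 2.36 CPM in WT mice (1.25, SE 0.50, adjusted p 0.591). Gipc1, an adaptor for endocytic traffic, stood at 0.43 in the same terms (SE 0.28, adjusted p 0.714).

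The genes whose levels followed each member most closely across mice were found by Spearman rho of log2 CPM over the 14 libraries with more than 1000000 counts, among 7168 genes with a mean of at least 20 CPM. For Sort1 these were Hspa12a (rho 0.95), Atp8a1 (0.94), Prickle2 (0.93), Adcy9 (0.93) and Sphkap (0.93), and over all 16 libraries their rho lay between 0.87 and 0.96. For Ntrk3 they were Htr1b (0.90), Foxo3 (0.86), Kdm2a (0.86), Insr (0.84) and Kcna4 (0.83), between 0.67 and 0.74 over 16 libraries. For Ntrk2 they were Med1 (0.85), Syap1 (0.84), Fryl (0.83), Trerf1 (0.82) and Agfg1 (0.82), between 0.25 and 0.82 over 16 libraries. The rho of the Sort1 companions thus stayed high when the shallow libraries were included, and that of most Ntrk2 companions did so less. The 16 libraries contain the 14 by which these genes were chosen, so this was no independent check. The 3 members followed one another less closely, with rho over 14 libraries of 0.58 for Sort1 and Ntrk3, 0.50 for Ntrk2 and Ntrk3 and 0.37 for Sort1 and Ntrk2; all these points share their libraries and depth, and the values are descriptions.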

How the data were processed

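One table per mouse was deposited in the layout of kallisto. Estimated counts and TPM were made by the authors. FastQC, cutadapt, kallisto and DESeq2 were used, per the submitters' processing notes; the sources used here give no versions, transcript index or genome build. The deposited estimated counts divide reads among transcripts by a model, so they can be fractional, and the deposited TPM hold no depth. Per the labels' protocols, RNA was isolated with a Maxwell kit and sequenced on an Illumina HiSeq.

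Estimated counts were summed per gene symbol, rounded, and tested with edgeR 4.0.16 in R 4.3.3 (quasi-likelihood test, TMM, filterByExpr with a minimum count of 10, all 16 libraries, no covariate), with Benjamini-Hochberg adjustment over all features and a threshold of 0.05. Transcripts were tested likewise, and their usage with diffSpliceDGE. These tests treat estimated counts as exact and so ignore the uncertainty of assigning reads to transcripts. Standard errors are the fold change divided by the square root of the F statistic, and intervals are 1.96 standard errors on each side. Single values were compared with exact permutation tests in SciPy 1.17.1, two-sided, over 12870 arrangements of 8 against 8 (smallest p 1.55e-04); correlations over 16 or 14 libraries used 100000 resamples. Transcript classes, positions and sequences came from GENCODE M21 by transcript identifier without its version, and several versions differ from those in the files. The scripts were tested on simulated counts.

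Each library carries an animal label of its own, with up to 2 libraries of a genotype sharing a number. The meaning of the number and the letter is not given, and every test treated the libraries as independent. Replicate numbers used here follow accession order and pair nothing. No 2 libraries of a group agreed within sampling noise (56 pairs, smallest chi-square per degree of freedom 4.29). The members, gene lists and tests were chosen with earlier results of these data known. Named genes are the members, the other receptors, Bdnf, up to 3 genes of smallest p from each other list and the 5 genes nearest each member in rho; a few of these are not reported here. Alternatives were DESeq2 1.42.0, limma 3.58.1 (voom, and log2(TPM + 1) and log2(TPM + 0.1)), other scalings and filters, the letter of the animal label, and omission of libraries.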

Additional observations from a re-analysis of the deposited data

Results flagged for a closer look

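Of 46 groups of 8 libraries examined among the member values, 3 held a library far from its fellows (gap over range above Dixon's critical value of 0.526), where chance alone marks about 1 group in 20. WT replicate 3 had a full-length share of Ntrk2 of 53.5%, against 75.2% to 83.5% in the other WT libraries. The same library had 71.1 CPM of the retained-intron transcript Sort1-005, against 0 to 27.3 CPM in the other WT libraries. It had 0 CPM of Sort1-004, whose cassette lies within the span of Sort1-005. Fmr1-KO replicate 3 had 46.7 TPM of truncated Ntrk2-202, against 24.9 to 33.01 TPM in the other Fmr1-KO libraries. WT replicate 3 is a shallow library with the highest astrocyte marker level of the 16, and the part of either in its values was not tested.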

How the results depend on the processing

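The 3 gene-level fold changes passed the threshold in no alternative and were positive in all as fitted; Sort1 lay between 0.20 and 0.87 (adjusted p 0.175 to 0.795). log2(TPM + 0.1) and log2(TPM + 1) shift the median of all genes by 0.62 and 0.55; relative to it Sort1 was at 0.24 and 0.31, Ntrk2 at 0.11 and 0.17, and Ntrk3, with its sign turned, at −0.066 and −0.0073. Genes past the threshold numbered 2, against 8 with DESeq2, 6 with DESeq2 without independent filtering (added after the data were seen), 7 with limma-voom, 5 with no filter and 0 on either TPM scale (736 and 902 at an unadjusted p under 0.05). Transcripts past it numbered 1, against 15 with DESeq2, 2 with DESeq2 without independent filtering (also added) and 0 on either TPM scale (777 and 1000 unadjusted). Sort1-001 passed under DESeq2 alone, at 0.30. Among fold changes, usage and shares, sign changes occurred only in values that passed no test; the r of full-length Ntrk2 with the astrocyte markers, −0.87, was 0.70 on log2(TPM + 1). On log2(TPM + 0.1), log2(TPM + 1) and with limma-voom, Ntrk3-002 was at 0.55, 0.52 and 0.16 and Sort1-004 at 1.24, 0.81 and 0.044; relative to the transcript median, which the TPM scales shift by 0.66 and 0.52, Ntrk3-002 was at −0.11 and −0.0027, with no change of sign, and Sort1-004 at 0.58 and 0.29. Without both shallow WT libraries, Ntrk2-201 was at −0.020 and Ntrk3-002 at 0.16; log2 usage was −0.015 for Ntrk2-201, 0.052 for Ntrk2-202, −0.047 for Ntrk3-001 and 0.043 for Ntrk3-002; the full-length shares differed by −0.66 points for Ntrk2 and −1.91 for Ntrk3; and 5 transcripts passed the usage test, against 2. A filter of 1 CPM in 8 libraries gave 4. Among mice of letter D the Ntrk3 share differed by −5.05 points, among those of letter B by 15.1. The truncated Ntrk2 and astrocyte relation passed with library totals (r 0.65, rho 0.55) and log2(TPM + 1) (r 0.88), and in 4 of 16 omissions of 1 library by r (Fmr1-KO replicate 3, p 0.0165, and WT replicates 1, 7 and 8, p 0.0361, 0.0309 and 0.0432) and 3 of 16 by rho. Leaving out each library in turn gave 2 to 3 genes, 1 to 2 transcripts, 2 to 4 usage calls, and fold changes of 0.021 to 0.21 for Ntrk2-201, −0.037 to 0.079 for Ntrk2-202, −0.25 to 0.018 for Ntrk3-002, −0.31 to 0.14 for Sort1-004 and −1.38 to −0.53 for Sort1-005. It gave log2 usage of −0.013 to 0.0499 for Ntrk2-201 and −0.16 to 0.045 for Ntrk2-202, shares differing by −0.59 to 3.69 points for Ntrk2 and 1.90 to 8.79 for Ntrk3, and an r of 0.36 to 0.54 (rho 0.35 to 0.59) with the astrocyte markers. The causes were not tested. No paired analysis was possible because the replicate numbers follow accession order and no label links mice of the 2 genotypes. Depth limits the minor transcripts most, Ntrk3-003 to Ntrk3-006 having too few counts to be tested.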
